A study of Mus musculus with 6 samples.

Results

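The EGR and NR4A early response factors were examined as 6 genes given by name, Egr1, Egr2, Egr3, Nr4a1, Nr4a2 and Nr4a3. Every probe set whose gene symbol in the platform annotation was exactly 1 of these names was kept, which gave 15 of the 45101 probe sets on the array, 5 for EGR genes and 10 for NR4A genes. The arrays measured RNA from mouse CD4 T cells driven towards a regulatory T cell (Treg) fate in culture, in 3 E47 samples and 3 control samples. E47 samples carried a retrovirus encoding E47-ER, the transcription factor E47 joined to an estrogen receptor (ER) domain, and control samples carried one encoding bHLH-ER. The labels do not say what the bHLH-ER protein holds.

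Both groups began as CD4+CD25- cells from lymph nodes of C57BL/6 mice, stimulated through CD3 and CD28 with IL-2 and TGF-β1 for 2 days. Virus-carrying cells, sorted on CD4 and Thy1.1, were then held for 6 hours with antibodies to CD3 and CD28, IL-2 and 1 µM tamoxifen before RNA was taken, so both groups were under T cell receptor stimulation and tamoxifen at harvest. Each of 3 independent experiments gave 1 E47 and 1 control sample, from mice of 7, 8 and 9 weeks in experiments 1 to 3, with 3, 3 and 4 mice pooled per sample. No sample without tamoxifen or without stimulation was analysed here, so induction of these genes from a resting level was not measured.

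EGR proteins are zinc finger transcription factors, and NR4A proteins are nuclear receptors that act without a known natural ligand. Genes of both families are switched on within minutes to hours of T cell receptor signalling, through MAP kinase and serum response factor for EGR genes and through calcium, calcineurin and CREB or MEF2 factors for NR4A genes. In T cells Egr1 is linked with activation and thymocyte selection, Egr2 and Egr3 with restraint of activation and anergy, and NR4A factors with tolerance, exhaustion and Treg development.

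Windows of 250 bases before the annotated transcription start are shown for the 4 members whose sequence is printed here, because they are the stretches through which early response genes are commonly induced and because E47 binds E-boxes. The sequences are from RefSeq, build GRCm38.p6, read 5′ to 3′ on the gene's strand. Capitals mark matches on either strand to the E-box core CANNTG, to the CRE core TGACG that CREB-type factors recognise, and to the CArG box of serum response factor. In Egr2 the CANNTG and the first TGACG match overlap. The Egr2 window lies at chr10:67537619-67537868 on the plus strand, Nr4a1 at chr15:101266596-101266845 on the plus strand, Nr4a2 at chr2:57124004-57124253 on the minus strand and Nr4a3 at chr4:48045055-48045304 on the plus strand.
Egr2: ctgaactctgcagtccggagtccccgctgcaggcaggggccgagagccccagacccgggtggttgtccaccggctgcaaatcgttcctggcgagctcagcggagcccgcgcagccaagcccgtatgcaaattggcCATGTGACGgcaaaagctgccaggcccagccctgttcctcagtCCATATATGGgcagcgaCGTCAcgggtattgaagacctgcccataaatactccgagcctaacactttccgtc
Nr4a1: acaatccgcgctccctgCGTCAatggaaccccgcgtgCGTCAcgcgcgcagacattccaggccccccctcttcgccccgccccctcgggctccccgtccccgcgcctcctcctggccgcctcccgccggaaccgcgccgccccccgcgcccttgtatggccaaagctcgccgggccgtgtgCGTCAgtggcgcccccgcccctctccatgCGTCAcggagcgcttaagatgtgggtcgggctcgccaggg
Nr4a2: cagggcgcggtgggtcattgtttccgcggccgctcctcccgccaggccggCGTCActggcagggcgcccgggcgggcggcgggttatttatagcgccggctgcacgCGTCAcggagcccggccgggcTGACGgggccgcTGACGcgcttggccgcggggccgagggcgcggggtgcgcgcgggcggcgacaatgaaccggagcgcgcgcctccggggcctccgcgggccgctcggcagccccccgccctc
Nr4a3: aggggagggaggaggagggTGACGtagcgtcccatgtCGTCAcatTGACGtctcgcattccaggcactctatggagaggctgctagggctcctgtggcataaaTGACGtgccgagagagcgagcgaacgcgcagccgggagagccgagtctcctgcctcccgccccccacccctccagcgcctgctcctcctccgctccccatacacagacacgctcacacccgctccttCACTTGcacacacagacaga

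The 3 NR4A windows each held 4 matches to TGACG, a number reached by 0.137% of the 32851 windows in the table. The Egr2 window held 2 TGACG matches (at least 2 in 3.90% of windows) and 1 CArG box (1.47% of windows). CANNTG matched once in Egr2 and once in Nr4a3 and was absent from the Nr4a1 and Nr4a2 windows, while 66.2% of all windows held at least 1. Egr2 has 5 annotated starts in the table, and the window shown is the third of them. The windows of the last 3 starts overlap and hold the same 4 matches, while the first held 1 CANNTG alone and the second 1 CArG box alone. These are matches of letters in a short window, and binding was not measured.

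**Figure D1:**
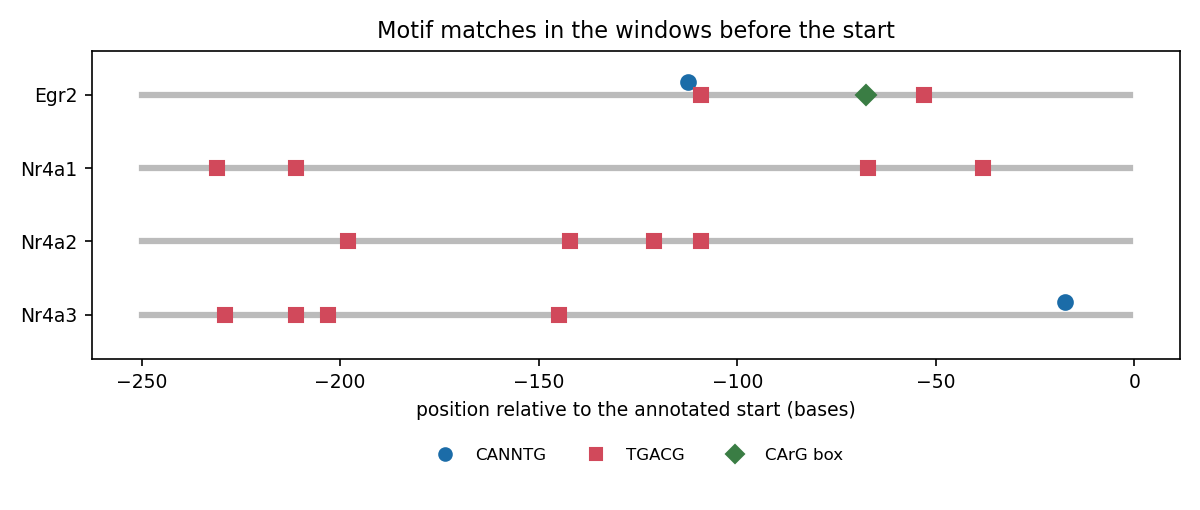
Motif matches in the 250 bases before the annotated start of Egr2, Nr4a1, Nr4a2 and Nr4a3, with the position relative to the start in bases on the horizontal axis. The 3 NR4A windows carry 4 TGACG matches each, and Egr2 carries the only CArG box of the 4 windows.

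Across the 15 probe sets the log2 fold changes ran from -0.69 to 0.28, and Egr2 was the member furthest below control in E47. None of the 15 passed an adjusted p of 0.05 in limma's paired test over all 45037 probe sets, where 0.271% passed, 0.0333% as lower and 0.238% as higher. An unadjusted p under 0.05 was reached by 6 of the 15, against 9.06% of all probe sets. With each gene reduced to its brightest probe set, the 18193 genes were fitted again in limma and p-values adjusted over them. In that fit Egr2 fell (adjusted p = 0.0161) and the other 5 members did not pass, against 0.363% of genes that fell. The 3 E47 arrays lay below all 3 control arrays in 3 of the 15 probe sets, both of Egr2 and 1 of Nr4a2, against 6.65% of all probe sets. They lay above all controls in 0 of 15, against 4.57%. The level was lower in E47 in every pair in 5 probe sets (17.5% of all probe sets) and higher in every pair in 1 (13.5%). Probe sets of 1 gene share its RNA and are not independent. In such bulk samples, fewer cells expressing a gene and less of its RNA per cell cannot be told apart.

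Egr2, a transcription factor induced by T cell receptor signals and tied to anergy and tolerance, was measured by 2 probe sets. Probe set 1427683_at had log2 intensities of 9.55, 9.24 and 9.17 in E47 replicates 1 to 3, against 10.31, 9.89 and 9.84 in control replicates 1 to 3. All E47 arrays were below all control arrays, and the differences within pairs were -0.76, -0.65 and -0.67, a narrow spread. The mean was 9.32 ± 0.20 in E47 and 10.02 ± 0.26 in control samples (SD, n = 3 each), so the E47 level was 0.618 times the control level. The log2 fold change of -0.69 had an SE of 0.08, a 95% interval from -0.90 to -0.49 and an adjusted p of 0.0582 over all probe sets, just outside the threshold. Without the pairing, where 0.115% of probe sets passed, the interval was -1.06 to -0.33 and the adjusted p 0.431 (0.302 over genes).

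Probe set 1427682_a_at of Egr2 gave the same picture, with 9.12, 9.04 and 8.99 in E47 and 9.86, 9.62 and 9.47 in control replicates 1 to 3. Its pair differences were -0.74, -0.58 and -0.48, and its log2 fold change was -0.60 (SE 0.09, adjusted p = 0.116). Over genes, Egr2 passed with pair 1 left out (adjusted p = 0.0310) but not with pair 2 left out (0.107) or pair 3 (0.122), and the log2 fold change stayed between -0.71 and -0.66. Of the myeloid markers, 5 of the 6 symbols listed were measured, and 0 passed in limma's test (1 at an unadjusted p under 0.05). On average 4 were lower in E47, against 57.7% of all genes, and 1, Itgam, was higher (0.11). In 3 all E47 arrays lay below all control arrays, against 6.65% of all probe sets. Their summed intensities were 152.7 to 166.8 in E47 and 176.5 to 181.9 in control samples, with the brightest, Csf1r, at a mean log2 intensity of 6.55 in E47 and 6.71 in control samples and the other 4 below the median level of all probe sets. Their part in the Egr2 difference was not tested.

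**Figure D2:**
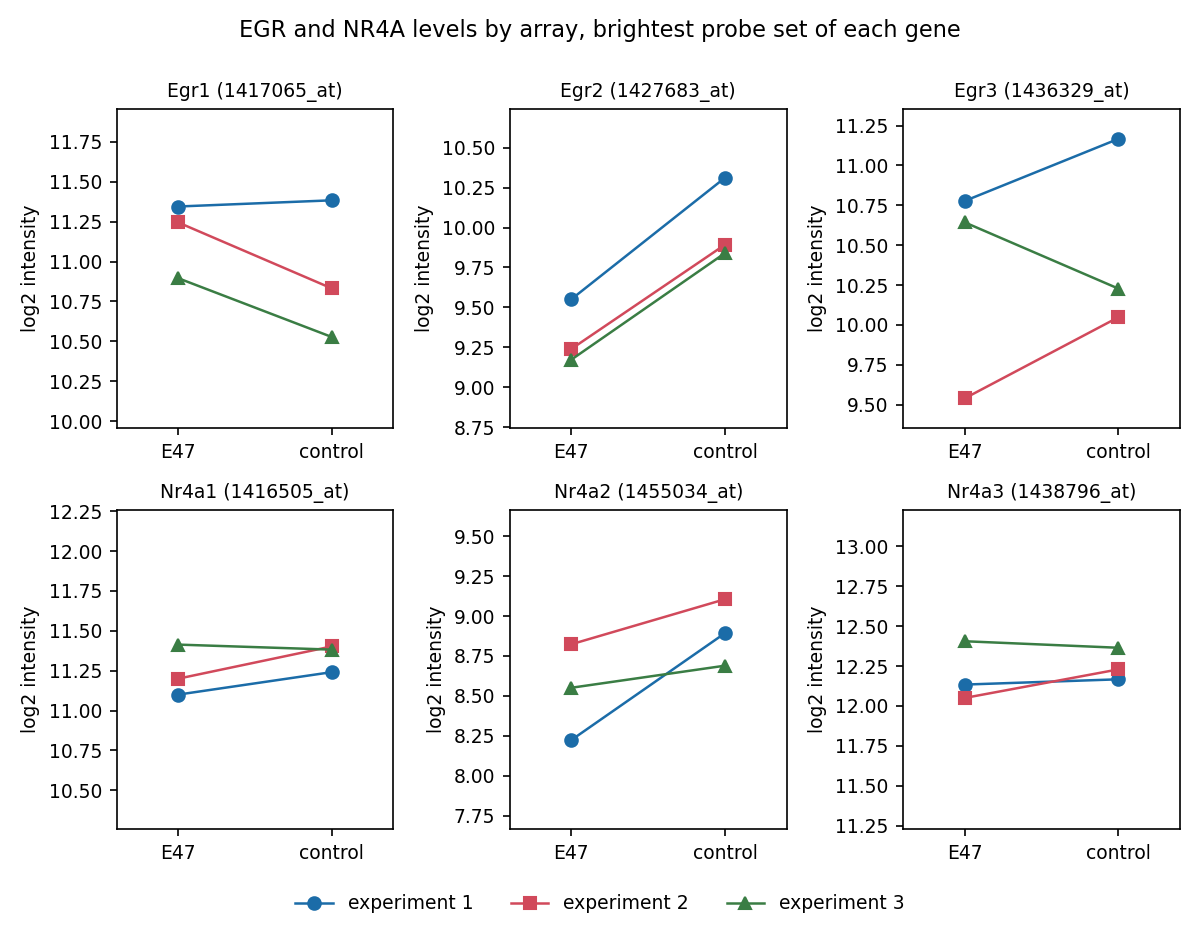
Log2 intensity of the brightest probe set of each gene in every array, E47 left and control right, with lines joining the 2 samples of an experiment; each panel spans 2 log2 units. The E47 ends of all 3 Egr2 lines lie below the control ends, with E47 at 9.17 to 9.55 and control at 9.84 to 10.31, while the Egr1, Egr3, Nr4a1 and Nr4a3 lines run in mixed directions.

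Egr1, the founding member of the family and a widely used readout of MAP kinase signalling, had 1 probe set, 1417065_at, with log2 intensities of 11.35, 11.25 and 10.90 in E47, against 11.38, 10.83 and 10.53 in control replicates 1 to 3. The groups overlapped, and E47 was higher in experiments 2 and 3 (0.41 and 0.37) and about level in experiment 1 (-0.04). The log2 fold change was 0.25 (SE 0.12, 95% interval -0.04 to 0.53, adjusted p = 0.599). Its level was highest in experiment 1 and lowest in experiment 3 in both groups.

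Egr3, which acts alongside Egr2 in restraining T cell activation, differed most between experiments. Probe set 1436329_at had log2 intensities of 10.78, 9.54 and 10.64 in E47, against 11.17, 10.05 and 10.23 in control replicates 1 to 3. Both arrays of experiment 2 were the lowest of their groups, and the pair differences of -0.39, -0.51 and 0.42 ran in both directions. The log2 fold change was -0.16 (SE 0.19, 95% interval -0.63 to 0.30, adjusted p = 0.827), the widest interval of the 15 probe sets. The other Egr3 probe set, 1421486_at, lay between 6.51 and 6.83 in E47 and between 6.72 and 6.91 in control samples, with a log2 fold change of -0.07 (SE 0.10). A moderated F test of the experiment term, past the threshold in 0.604% of all probe sets, called 0 of the 15, and 1436329_at had the lowest adjusted p among them (0.191).

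Nr4a1, also known as Nur77 and the basis of reporters of T cell receptor signal strength, had log2 intensities of 11.10, 11.20 and 11.41 in E47, against 11.24, 11.40 and 11.38 in control replicates 1 to 3 (1416505_at). The groups overlapped and the log2 fold change was -0.10 (SE 0.09, adjusted p = 0.758). The interval from -0.33 to 0.12 bounds the change in either direction.

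Nr4a2, known as Nurr1 and linked in Treg cells with Foxp3 induction, had 6 probe sets, 4 of them lower and 2 higher in E47 on average. The lowest relative to control was 1447863_s_at, with 7.68, 8.23 and 7.97 in E47, against 8.35, 8.66 and 8.48 in control replicates 1 to 3. Its groups did not overlap, and the log2 fold change was -0.54 (SE 0.09, 95% interval -0.76 to -0.32, adjusted p = 0.144).

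The brightest Nr4a2 probe set, 1455034_at, had 8.22, 8.82 and 8.55 in E47, against 8.89, 9.11 and 8.69 in control replicates 1 to 3. Its groups overlapped although E47 was lower in each pair, with differences of -0.67, -0.28 and -0.14. The log2 fold change was -0.36 (SE 0.12, adjusted p = 0.486, and 0.310 over genes). Probe set 1450750_a_at was also lower in each pair, with a log2 fold change of -0.42 (SE 0.11), and 1450749_a_at had -0.14 (SE 0.11). The remaining 2, 1433422_at and 1433423_at, share a source sequence in the platform annotation that the others do not, and had log2 fold changes of 0.10 (SE 0.10) and 0.13 (SE 0.09). These 2 were the dimmest of the 6, with means of 6.45 in E47 and 6.35 in control samples for 1433422_at. For 1433423_at the means were 5.22 and 5.09, near 5.12, the median level of all probe sets. The intervals of these 2, -0.15 to 0.35 and -0.10 to 0.36, spanned no change, as did that of 1450749_a_at (-0.42 to 0.14). The probe sets of Nr4a2 thus differed in the sign of the estimate, but no rise was resolved, and none passed.

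Nr4a3, known as NOR1, had 3 probe sets that disagreed in direction. The brightest, 1438796_at, had log2 intensities of 12.13, 12.05 and 12.41 in E47, against 12.17, 12.23 and 12.36 in control replicates 1 to 3. Its log2 fold change was -0.06 (SE 0.09, 95% interval -0.27 to 0.16, adjusted p = 0.873). Probe set 1421079_at was higher in E47 in each pair (0.17, 0.15 and 0.52) but its group means of 4.60 in E47 and 4.32 in control samples were below 5.12, the median level of all probe sets. Its adjusted p was 0.530, and 1421080_at had a log2 fold change of 0.00 (SE 0.10).

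**Figure D3:**
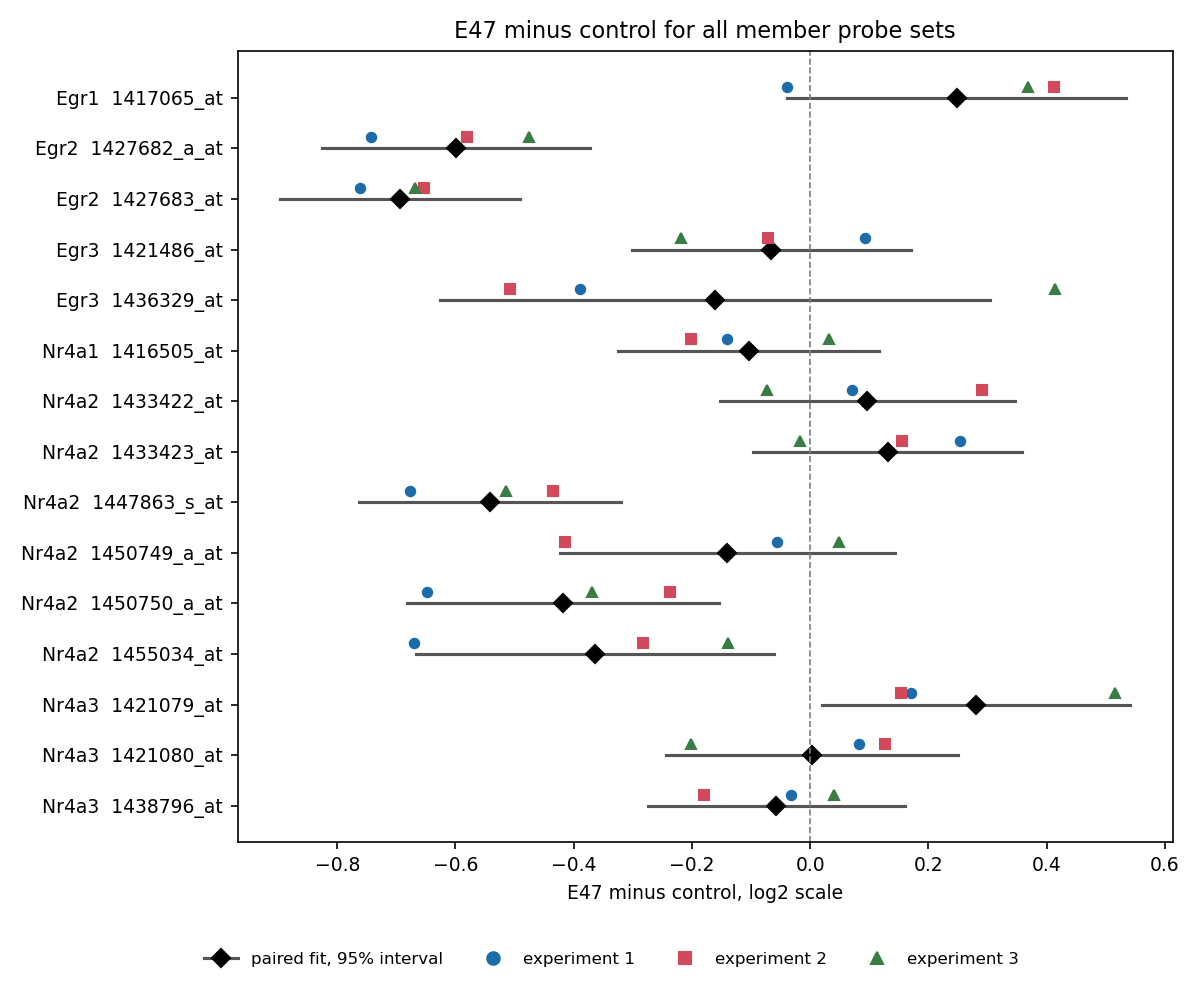
E47 minus control on the log2 scale for all 15 probe sets, with the paired fit's estimate and 95% interval in black and the 3 within-experiment differences as coloured symbols. Both Egr2 estimates (-0.60 and -0.69) and Nr4a2 1447863_s_at (-0.54) lie below 0 with all 3 experiments, while Nr4a1 and Nr4a3 1438796_at lie near 0.

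Whether members moved apart was tested on the log2 ratio of their brightest probe sets within each array, over 15 pairs of genes. The change of Egr1 exceeded that of Egr2 by 0.94 (SE 0.13, 95% interval 0.62 to 1.26, adjusted p = 0.00619 over the 15 pairs), with 0.72, 1.07 and 1.04 in experiments 1 to 3. The change of Egr1 also exceeded that of Nr4a2, by 0.61 (SE 0.12, adjusted p = 0.0112), but this depended on the Nr4a2 probe set: of the other 5, 1447863_s_at and 1450750_a_at also passed (0.79 and 0.67), and 1450749_a_at, 1433422_at and 1433423_at did not (0.39, 0.15 and 0.12, adjusted p = 0.155, 0.438 and 0.638). Egr2 fell relative to Nr4a1 (-0.59, SE 0.12, adjusted p = 0.0113) and relative to Nr4a3 (-0.64, SE 0.12, adjusted p = 0.0112). The other 11 pairs did not pass, among them Egr2 against Nr4a2 (-0.33, 95% interval -0.67 to 0.00364) and Egr2 against Egr3 (-0.53, 95% interval -1.03 to -0.04, adjusted p = 0.111). Without the pairing 1 of the 4 calls was left, Egr1 against Egr2 (adjusted p = 0.00452), and without pair 2 or without pair 3 none was, with Egr1 against Egr2 at adjusted p = 0.0538 and 0.0626. The 3 calls that involve Egr2 passed with each other probe set of Egr2, Egr3, Nr4a2 and Nr4a3 in place of the brightest, 1 at a time, and Egr2 against Nr4a2 passed with the same 3 Nr4a2 probe sets with which Egr1 against Nr4a2 did not (-0.55, -0.79 and -0.83).

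**Figure D4:**
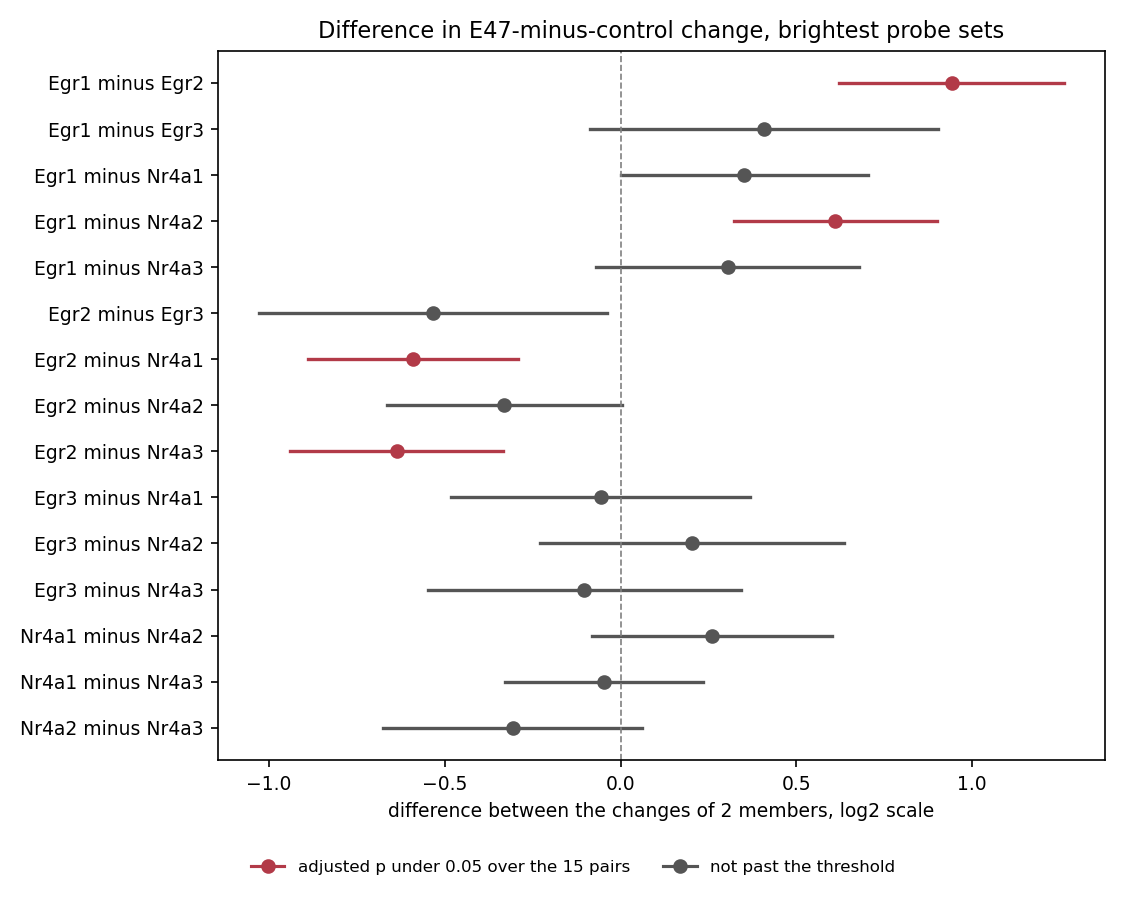
Difference between the E47-minus-control changes of 2 members on the log2 scale, brightest probe sets, with 95% intervals for the 15 pairs. The 4 pairs in red passed, and all of them involve Egr2 or Egr1: Egr1 minus Egr2 at 0.94, Egr1 minus Nr4a2 at 0.61, Egr2 minus Nr4a1 at -0.59 and Egr2 minus Nr4a3 at -0.64.

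Among genes that act with or around the 2 families, counts refer to the brightest probe set of each gene in the paired fit, adjusted over all probe sets, where 0.0715% of 18193 genes were lower, 0.368% were higher and the median log2 fold change was -0.03. An unadjusted p under 0.05 was reached by 9.06% of all probe sets, and that share over the 18193 genes was not computed. Calls were rarer over all probe sets, at 0.0333% lower and 0.238% higher, so 9.06% may be too low a yardstick for these lists. Whether called or not, 57.7% of the 18193 genes had a log2 fold change below 0. Of 5 EGR partners and corepressors, 0 passed in limma's test and 0 had an unadjusted p under 0.05, with a median of -0.12. Nab2, a corepressor that binds EGR proteins and is itself an EGR target, had a log2 fold change of -0.16 (SE 0.09). Wt1, a zinc finger factor with EGR-like sites, had -0.13 at means of 3.44 in E47 and 3.58 in control samples, below the median level of all probe sets. Of 20 measured genes upstream of EGR and NR4A induction, 0 passed (4 at an unadjusted p under 0.05, median -0.09). Elk3, a ternary complex partner of serum response factor, had -0.53 (SE 0.10, adjusted p = 0.196), and Rcan1, a calcineurin inhibitor induced by NFAT, had -0.28 (adjusted p = 0.431).

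Of 18 T cell genes linked to Egr2 and Egr3, 0 passed over all probe sets (median -0.03). An unadjusted p under 0.05 was reached by 7, against 9.06% of all probe sets. Socs3, an inhibitor of cytokine signalling, differed by 1.06 on the log2 scale (adjusted p = 0.0670) and rose in the fit over genes (adjusted p = 0.0193). Socs3 did not pass over genes without the pairing, without pair 2 or without pair 3. Nrn1, the neuritin gene, which anergic T cells express, was lower in every pair (-0.79, -0.66 and -0.35), and its log2 fold change of -0.60 did not pass (adjusted p = 0.191). Of 12 measured T cell genes linked to NR4A, 0 passed (4 at an unadjusted p under 0.05, against 9.06% of all probe sets). On average 10 were lower, against 57.7% of all genes, and the median was -0.21. Havcr2, which encodes the checkpoint receptor TIM-3, had -0.53 (adjusted p = 0.396) at a level below the median of all probe sets, and Lag3, another checkpoint receptor, had -0.31 (adjusted p = 0.427).

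Of 43 other early response genes, 0 passed over all probe sets (median -0.09). An unadjusted p under 0.05 was reached by 16, against 9.06% of all probe sets. On average 27 were lower and 16 higher in E47, where 57.7% of all genes were lower. All E47 arrays lay above all control arrays in 3 genes and below them in 1, against 4.57% and 6.65% of all probe sets. The largest change of the list was a rise, Atf3 at 0.89, which did not pass over genes (limma adjusted p = 0.0598). Over genes 4 fell and 1 rose, against 0.363% and 0.781% of all genes. The chemokine genes Ccl3 and Ccl4, both quickly induced by T cell receptor signals, had log2 fold changes of -0.77 (adjusted p = 0.0563) and -0.66 (0.0751), and both fell over genes (0.0154 and 0.0221). Ptgs2, which encodes cyclooxygenase 2, and Fosl2, an AP-1 subunit, fell over genes as well (-0.87 with adjusted p = 0.0245, and -0.68 with 0.0249), and Trib1, a pseudokinase gene, rose (0.61, adjusted p = 0.0406). Over genes 0 of the 43 passed without the pairing, without pair 2 or without pair 3. Ptgs2, Fosl2 and Trib1 are named after their values were seen, to complete the 5, and Atf3 is named as the largest change.

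Of the 6 E protein and Id genes, 2 rose, Id2 by 2.64 (SE 0.17, adjusted p = 0.00673) and Id3 by 1.63 (SE 0.13, adjusted p = 0.0161). The list's median was 0.58. Both also passed without the pairing, and neither passed over all probe sets without pair 2 or without pair 3, though both did over genes. Id3, an inhibitor of E proteins, is known as a target of Egr1 in thymocytes, and had 12.10, 12.11 and 11.67 in E47, against 10.36, 10.25 and 10.38 in control replicates 1 to 3. Id1 had 1.06 (adjusted p = 0.0592) and rose over genes (0.0170), but did not pass over genes without the pairing (0.118), without pair 2 or without pair 3. Tcf4, a further E protein gene, had -0.34. Of the 3 construct genes, Tcf3, which encodes E47, had -0.01 (adjusted p = 0.973) and Esr1 had 0.21 (adjusted p = 0.601). Whether either probe set reads the cloned part was not analysed here. Thy1, the gene of the sorting marker Thy1.1, rose by 0.82 (SE 0.09, adjusted p = 0.0498) but did not pass without the pairing (0.428) or without pair 2 or pair 3. Whether its probe set tells the marker from the cells' own Thy1 was not analysed here. The construct list's median was 0.21.

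**Figure D5:**
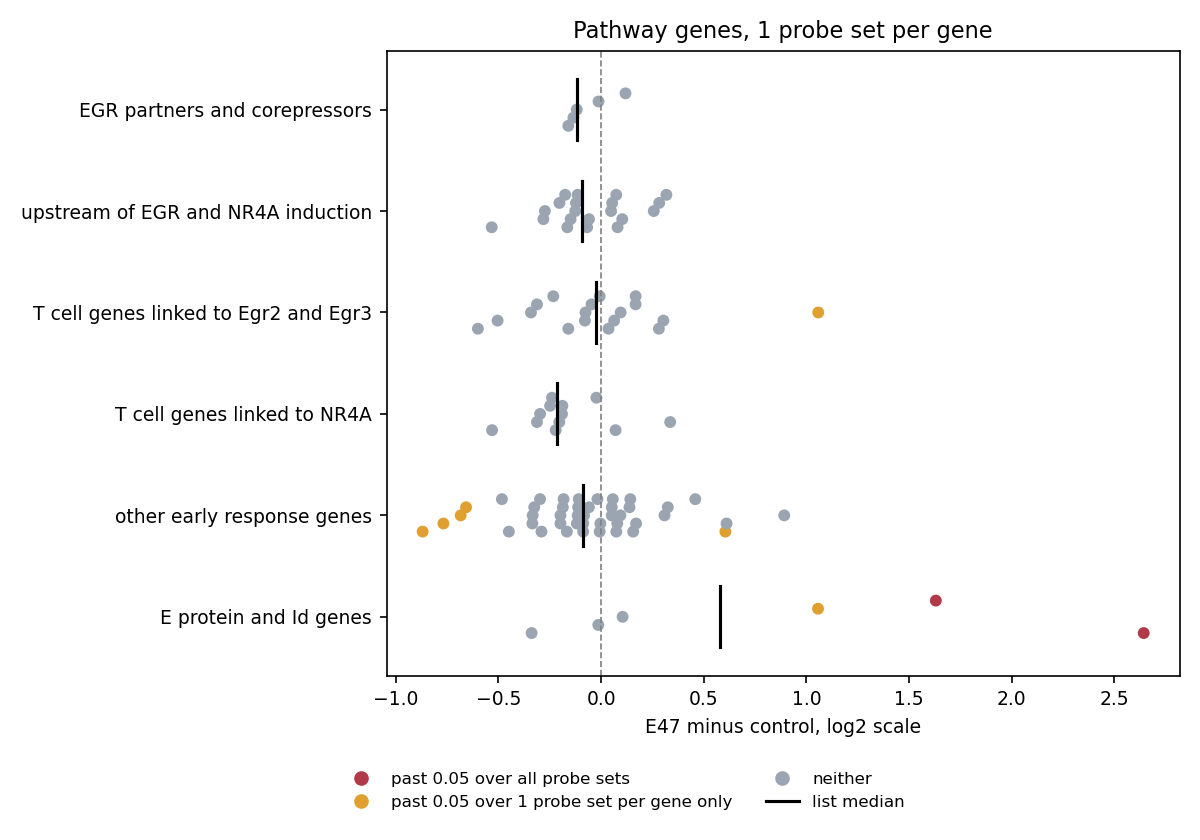
E47 minus control on the log2 scale for the brightest probe set of each gene in 6 lists, with the list median as a black bar and colours for the adjusted p. Id2 (2.64) and Id3 (1.63) are the only 2 genes past the threshold over all probe sets, and in the 3 lists nearest to EGR and NR4A function the medians lie between -0.21 and -0.03.

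The labelled cell type was checked on marker genes. The 6 measured T cell markers, the 3 Treg markers and the 2 CD8 markers all lay above the median level of all probe sets. That level alone therefore does not tell these cell types apart. Of the T cell and Treg markers 0 passed in limma's test (2 T cell and 0 Treg markers at an unadjusted p under 0.05, against 9.06% of all probe sets). The B cell list had 2 of 4 and the NK list 1 of 2 measured markers below that level. Their summed intensities overlapped, at 122.5 to 152.4 in E47 and 121.4 to 170.3 in control samples for B cells, and at 134.4 to 338.8 in E47 and 117.2 to 456.4 in control samples for NK cells, and 0 of either list passed or had an unadjusted p under 0.05. The 2 CD8 markers had sums of 188.9 to 326.9 in E47 and 140.0 to 209.1 in control samples, and neither passed (1 at an unadjusted p under 0.05). For Cd8b1 all 3 E47 arrays lay above all 3 control arrays, against 4.57% of all probe sets. Averaged over both groups, log2 intensities in experiments 1 to 3 were 6.79, 7.12 and 6.68 for Cd8b1 and 6.39, 8.00 and 6.18 for Foxp3. Foxp3 differed between experiments (moderated F test, adjusted p = 0.0146).

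The genes whose levels across the 6 arrays were most like each member's were taken from 6586 probe sets above the median level with a range of at least 0.5. For Egr2 these were Vim, the intermediate filament vimentin (r = 0.990), Parp3 (0.986) and Cst7, the cystatin F gene (0.982), with log2 fold changes of -0.44, -0.46 and -0.66. For Nr4a2 they were Clcf1, an IL-6 family cytokine (0.990), Gata3, the Th2 lineage factor (0.968), and Plxnc1 (0.963). For Egr1 they were Usp7, Rexo5 and Clcn3 (0.987, 0.966 and 0.964), and for Egr3 they were 2810021J22Rik, 9930104L06Rik and Thyn1 (0.997, 0.993 and 0.987). For Nr4a1 they were Klf7, Hivep2 and Mgat5 (0.971, 0.963 and 0.961), and for Nr4a3 they were Tmem144, Ap2b1 and Bag3 (0.986, 0.984 and 0.978). With 6 arrays from 3 experiments, values this high are reached by many probe sets, and 21 to 152 of the 6586 exceeded 0.9 for each member. Among the members themselves, Pearson's r across the 6 arrays was 0.81 between Nr4a1 and Nr4a3 and -0.83 between Egr1 and Nr4a1, and these points share experiments and arrays.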

How the data were processed

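RNA from 6 samples was measured on Affymetrix mouse arrays. The deposited values are intensities on a linear scale, 1 for each probe set on each array. Per the submitters' processing notes the authors used RMA, and no version is given. RMA corrects background, aligns arrays and summarises probes, so values depend on all arrays and compress differences at low levels. Array medians lay between 34.3 and 35.4.

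Log2 was taken and 64 Affymetrix control probe sets were left out. The remaining 45037 were fitted together in limma 3.58.1 (R 4.3.3; lmFit, eBayes, two-sided), with the group and the experiment as a fixed block and Benjamini-Hochberg adjustment over all of them, threshold 0.05. The platform annotation gave 34945 of them 1 gene symbol, 932 several and 9160 none, so 18193 genes were named. The brightest probe set has the highest mean log2 value. Results given over genes come from a separate limma fit of the brightest probe sets alone, with its own prior variance. Its fold changes are the same, and SEs printed for single genes are from the fit over all probe sets. The pairing comes from the series design text, and same-numbered samples share mouse age and number pooled. Deviations from the group means correlated at 0.088, 0.520 and 0.314 for same-numbered arrays and between -0.426 and 0.217 for others. E47 replicate 1 correlated more with control replicate 3 (0.217) than with control replicate 1 (0.088), so these values do not bear out pair 1. Group and replicate numbers came from titles, and replicate numbers were taken as experiment numbers.

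For the ratio of 2 members the prior variance of the fit was doubled. Members and gene lists were chosen with earlier results of these data known, and the paired fit was chosen with them known too, as the rule for these genes pairs samples by number. Named genes were the 6 members, the construct genes and, from each list by lowest p, at most 4 genes that passed and at most 2 that did not; likeness used the 3 highest r per member. Alternatives were no pairing, a random block, median centring, quantile normalization, cyclic loess, bright probe sets alone, 1 value per gene, an intensity trend and leaving out pairs. The fit was tested on simulated data made with shared pair effects and independent normal noise, as the fit assumes. That test cannot show whether the pairing suits these arrays. The number of arrays, 3 per group, limits the precision. Detection above background was not tested.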

Additional observations from a re-analysis of the deposited data

How the results depend on the processing

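The paired fit over all probe sets gave 107 higher and 15 lower calls. Without the pairing the counts were 52 and 0 (1 lower call over genes, 44 higher), with a random block 6 lower, with probe sets above the median level 41 lower, with 1 probe set per gene 66 lower, with the mean of a gene's probe sets 67 lower, and with an intensity trend 362 higher and 196 lower. Leaving out 1 pair gave 4 to 486 higher and 0 to 65 lower calls over probe sets, and 41 to 208 higher and 0 to 80 lower (8 without replicate 2) over genes. The 4 higher calls came without pair 3 and the 486 without pair 1.

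Egr2 1427683_at stayed lower in all 16 alternatives, 1 of which used the mean over the 2 Egr2 probe sets, and passed in 7 of them. Settings that change only the spread or the set of probe sets fitted leave its fold change as it was. All 3 pair differences were negative, so leaving out a pair could not reverse it. The shared direction is thus not independent support. For 1427683_at the log2 fold change was -0.71 with quantile normalization (adjusted p = 0.0451). It was -0.69 with bright probe sets alone (0.0312), with 1 probe set per gene (0.0161) and with an intensity trend (0.00160). The mean over the Egr2 probe sets gave -0.65 (0.0138). Leaving out pairs moved 1427683_at between -0.71 and -0.66, and it also passed without pair 1 over all probe sets (0.0488). With the intensity trend Egr2 1427682_a_at (-0.60, adjusted p = 0.00760) and Nr4a2 1447863_s_at (-0.54, 0.0214) passed. With a random block the adjusted p of Egr2 1427683_at was 0.163, and with no replicate block 0.431. Members near 0 changed sign: Nr4a3 1421080_at had -0.0259 with quantile normalization and ran from -0.0589 (without replicate 2) to 0.105 with a pair left out, and Nr4a3 1438796_at had 0.0755 as a mean over probe sets and ran from -0.106 to 0.00388 (without replicate 2). With a pair left out Egr3 1436329_at ran from -0.449 to 0.0132 (without replicate 2), Nr4a2 1433422_at from -7.1e-04 (without replicate 2) to 0.182 and Egr3 1421486_at from -0.145 to 0.0107 (without replicate 3); over genes the values without replicate 2 were also 0.0132 for Egr3 and 0.00388 for Nr4a3. The cause was not tested.

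The number of member pairs past the threshold was 4, 1 with no replicate block, 0 to 4 with a pair left out, and 4 to 6 with another probe set of a member. With a pair left out, Egr3 minus Nr4a1 ran from -0.277 to 0.0679 and Egr3 minus Nr4a3 from -0.343 to 0.0226, and both were above 0 without replicate 1 and without replicate 2. With another probe set, differences that did not pass changed sign. With 1433422_at and 1433423_at of Nr4a2, Egr3 minus Nr4a2 was -0.257 and -0.292, Nr4a1 minus Nr4a2 -0.201 and -0.235, and Nr4a2 minus Nr4a3 0.154 and 0.188. With 1450749_a_at Egr3 minus Nr4a2 was -0.0204, with Egr3 1421486_at Egr3 minus Nr4a1 was 0.0384, and with Nr4a3 1421079_at Egr1 minus Nr4a3 was -0.0327. Among list counts, the early response list gave 2 lower calls with quantile normalization and 3 with bright probe sets alone. It gave 7 lower and 3 higher with the trend, and 4 lower and 1 higher with 1 probe set or the mean per gene. That higher call was Trib1 with 1 probe set per gene and Atf3, not Trib1, with the mean. The Egr2 and Egr3 list gave 1 higher call (Socs3) with 1 probe set or the mean per gene and 2 higher and 2 lower with the trend, where the upstream list gave 1 lower call (Elk3). With a pair left out the early response list gave 0 to 3 lower and 0 to 2 higher calls over probe sets and 0 to 4 lower and 0 to 2 higher over genes, the Egr2 and Egr3 list 0 to 1 higher, the E protein and Id list 0 to 3 higher and the construct list 0 to 1 higher. The construct call (Thy1) was 0 with no replicate block, with a random block and with cyclic loess. Settings that combine 1 probe set per gene with a left-out pair or no pairing, and the alternatives for member pairs, were chosen after seeing the data.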
